A study of Homo sapiens with 12 samples.

Results

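O-glycans are sugars joined to serine or threonine of proteins on their way through the secretory pathway, and 36 of the 57773 genes in the deposited count table were taken as the enzymes that build them. They were taken by gene name and role: 12 polypeptide GalNAc-transferases (GALNT) that start mucin-type chains, the core 1 synthase and its chaperone, 6 branching or extending enzymes, 8 sialyltransferases, both O-mannosyltransferases, 3 O-fucose and O-glucose transferases and 3 Fringe enzymes. The choice was made with earlier results of these data known, so the shares over all genes given below are no unbiased contrast. The RNA came from A549, a human lung adenocarcinoma line. The groups were siGOLM1-1, siGOLM1-2 and a non-targeting control siRNA, each brought in at 50 nM by reverse transfection and collected at 72 h, and the labels count 4 biological replicates in each. Both GOLM1 siRNAs target GOLM1, which encodes a Golgi membrane protein, so the 3 groups share the cell line, the transfection and the harvest time and differ in the siRNA alone, as far as the labels say. Counts are given here as CPM, counts relative to a library total adjusted by its TMM factor, and n is 4 libraries per group throughout.

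Mucin-type O-glycosylation begins in the Golgi when a GALNT enzyme adds GalNAc to a protein, and the resulting stub is built into core 1 with galactose, branched, extended, or capped with sialic acid, which ends the chain. Cancer cells often carry truncated and sialylated forms of these chains. O-mannose, O-fucose and O-glucose are added in the endoplasmic reticulum instead, to dystroglycan and to the folded repeats of proteins such as the Notch receptors.

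Library totals ran from 41.6 M to 71.3 M counts. The knockdown stood in every library: GOLM1 was at 37.5 to 38.9 CPM with siGOLM1-1 and 44.6 to 53.4 CPM with siGOLM1-2, against 344.5 to 378.1 CPM in the control. All 6 epithelial and all 7 A549 markers were detected in each group. The summed epithelial level ran from 2721 to 3306 CPM with siGOLM1-1, from 5292 to 5474 CPM with siGOLM1-2 and from 4804 to 6803 CPM in the control. The summed A549 marker level ran from 21810 to 25610 CPM with siGOLM1-1, from 14387 to 16474 CPM with siGOLM1-2 and from 19323 to 21523 CPM in the control. Markers that A549 should lack summed to far less than the epithelial and A549 markers. Summed over 6 leukocyte genes they were at 12.2 to 18.9 CPM with siGOLM1-1, 16.3 to 19.6 CPM with siGOLM1-2 and 8.23 to 9.62 CPM in the control. The 3 endothelial genes summed to 1.19 to 1.99 CPM with siGOLM1-1, 0.609 to 0.998 CPM with siGOLM1-2 and 0.242 to 0.640 CPM in the control. The 5 fibroblast genes summed to 48.8 to 93.9 CPM with siGOLM1-1, 27.2 to 40.4 CPM with siGOLM1-2 and 34.2 to 74.8 CPM in the control, most of it COL1A1. Of the defining leukocyte genes, 1 had no count in any siGOLM1-1 library and 2 had none in any control library, while each had a count with siGOLM1-2. The 2 leukocyte genes and 1 endothelial gene with enough counts to be tested were called higher (adjusted p under 0.05) with both siRNAs. Of 4 fibroblast genes tested, 0 were called higher and 2 lower with siGOLM1-1, and 2 and 1 with siGOLM1-2. Of all genes tested, 47.5% were called with siGOLM1-1 and 45% with siGOLM1-2. The part of these marker differences in the results was not tested. The control libraries stood apart in pairs, replicates 1 and 2 against replicates 3 and 4. Over all genes tested, their deviations from the control mean correlated at 0.33 and 0.39 within the pairs and at -0.70 to -0.66 between them. Of the 34 members tested, 7 were more than 1.5-fold higher in the second pair and 3 more than 1.5-fold lower. The same share over all genes was not counted, so these counts are no result about the members. Each member's call against control below is therefore also given with either pair alone where that ended it.

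Of the 36 genes, 34 had enough counts to be tested. GALNT3 had 0 to 9 counts and ST6GALNAC5 had 0 to 13 counts in any library, and neither was tested. A gene was called where its Benjamini-Hochberg adjusted p over all 17532 genes tested was under 0.05 in edgeR's quasi-likelihood test, which gave every adjusted p below unless another tool is named. With siGOLM1-1, 18 of the 34 tested members were called higher than in the control, 9 lower and 7 were not called, beside 23.7% of all genes called higher and 23.8% called lower (47.5% in all). The median log2 fold change of the members was 0.27, beside -0.01 over all genes tested. With siGOLM1-2, 14 were called higher than in the control, 5 lower and 15 were not called, beside 21.8% of all genes called higher and 23.2% lower (45% in all). Here the members' median was 0.20, beside -0.01 over all genes. The comparisons against control share the control libraries. Set directly against siGOLM1-2, siGOLM1-1 gave 12 members higher, 11 lower and 11 not called, beside 27.9% of all genes higher and 26.5% lower (54.4% in all), with medians of 0.13 over the members and 0.01 over all genes. Group ranges were fully separate for 20 tested members in each of the 3 comparisons, a different set of members in each, beside 41% of all genes for siGOLM1-1 against control, 45.9% for siGOLM1-2 against control and 48.4% for siGOLM1-1 against siGOLM1-2. The count of 18 was 11 without siGOLM1-1 replicate 2. A fit with fewer libraries can lose a call near the threshold while the difference stays the same or grows. Values in brackets beside lost calls below are the log2 differences in those fits. When libraries were scaled by their totals alone, the split over all genes was 4682 higher and 3233 lower for siGOLM1-2 against control, against 3814 and 4071 with TMM factors, and 3564 higher and 5957 lower for siGOLM1-1 against siGOLM1-2, against 4887 and 4654 with TMM factors. That scaling shifted the median of all genes by -0.13 on the log2 scale in the direct comparison, and the members' differences between the siRNAs are given on the TMM scale. In bulk RNA a smaller share of cells with a transcript and less transcript per cell cannot be told apart.

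**Figure D1:**
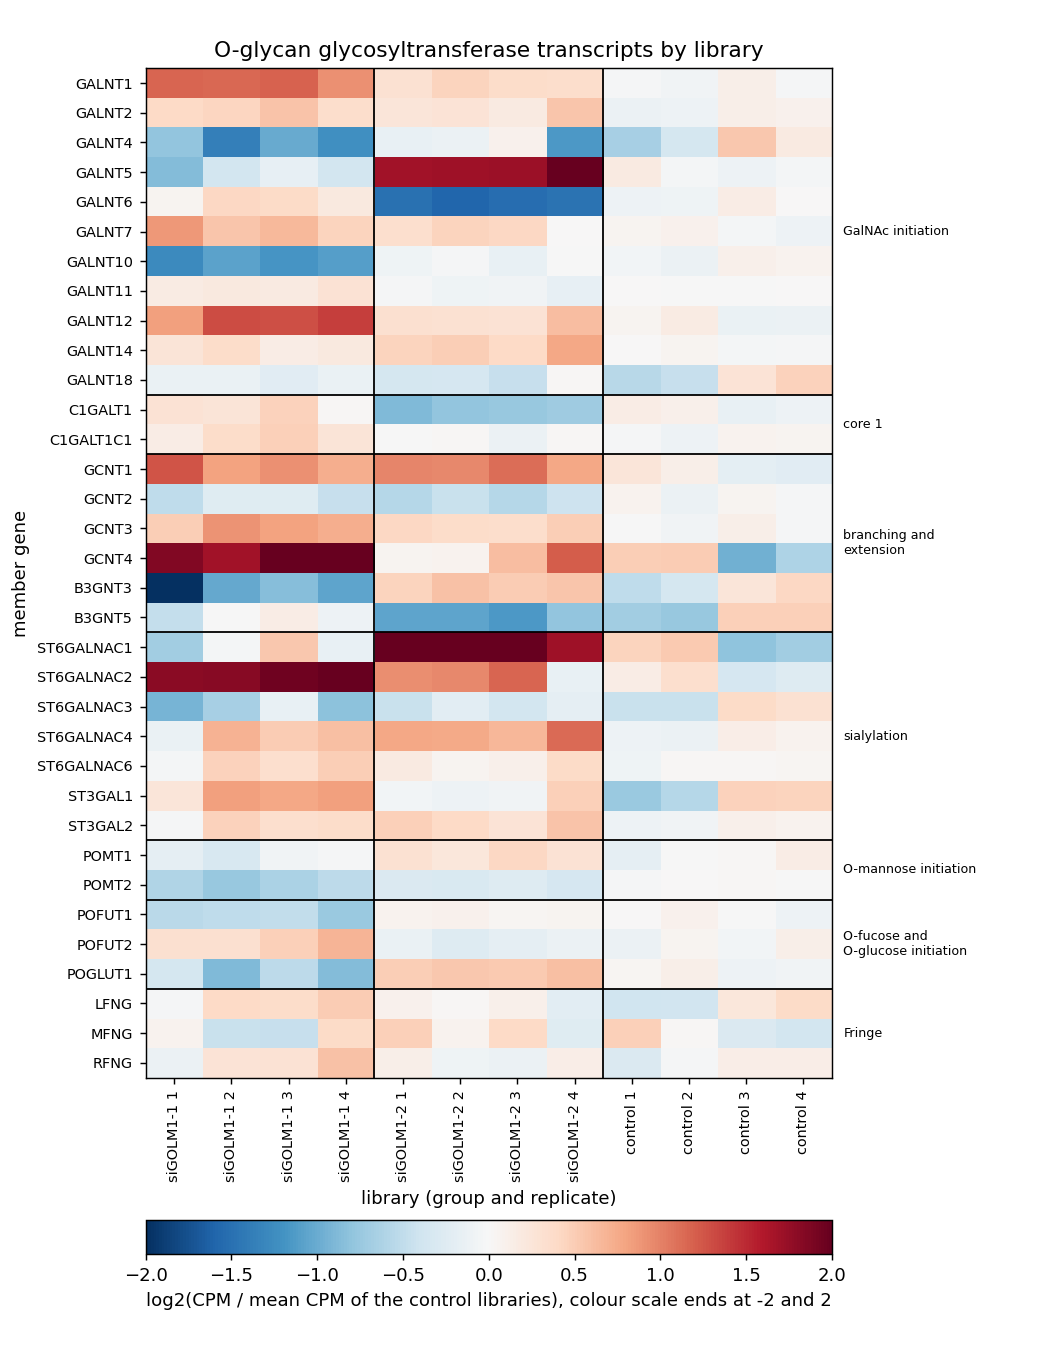
Level of the 34 tested members in each of the 12 libraries, as log2 of the CPM over the mean control CPM, with members grouped by role and libraries ordered siGOLM1-1, siGOLM1-2, control. Colours end at -2 and 2. GALNT1 and GALNT12 are above the control mean in all 8 knockdown libraries, GALNT10 is below it in the 4 siGOLM1-1 libraries, and the control columns differ between replicates 1 and 2 and replicates 3 and 4 for B3GNT5 and ST3GAL1.

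**Figure D2:**
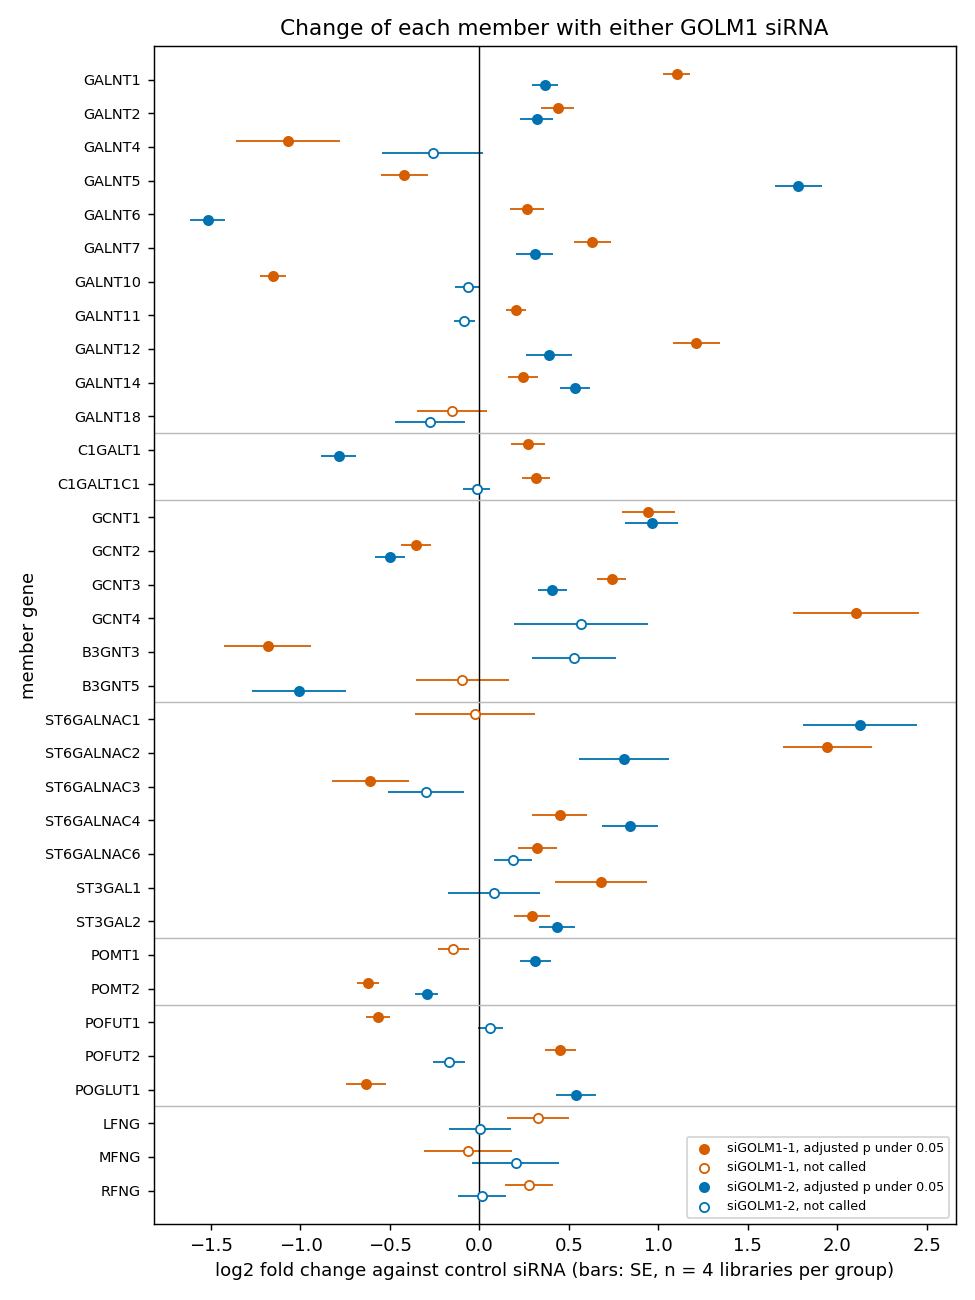
Log2 fold change of each tested member against control, with its standard error as a bar, for siGOLM1-1 and siGOLM1-2. Filled points were called at an adjusted p under 0.05. The values run from -1.18 (B3GNT3) to 2.10 (GCNT4) with siGOLM1-1 and from -1.52 (GALNT6) to 2.13 (ST6GALNAC1) with siGOLM1-2.

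4 members were called in opposite directions against the same control libraries and differed between the siRNAs in the direct test, beside 7.11% of all genes tested: GALNT5, GALNT6, C1GALT1 and POGLUT1. Of their calls with siGOLM1-1, that of GALNT6 was lost in 9 of 17 alternatives, that of C1GALT1 in 8 and that of GALNT5 in 2. C1GALT1 encodes the core 1 synthase, which adds galactose to the GalNAc stub. POGLUT1 encodes the enzyme that adds O-glucose to EGF repeats such as those of Notch. Promoter windows were looked up for GALNT5, GALNT6, C1GALT1, POGLUT1, ST6GALNAC1 and ST6GALNAC2. Genes with a single annotated window were kept, which left C1GALT1 and POGLUT1. The promoter set held no window for GALNT5 or GALNT6. The windows run from 250 bases before to 50 bases after the annotated start, from RefSeq on GRCh38.p14, 5′ to 3′ on the plus strand, with the CG dinucleotides in capitals. The C1GALT1 window is chr7:7182294-7182593 and the POGLUT1 window is chr3:119468713-119469012.
C1GALT1: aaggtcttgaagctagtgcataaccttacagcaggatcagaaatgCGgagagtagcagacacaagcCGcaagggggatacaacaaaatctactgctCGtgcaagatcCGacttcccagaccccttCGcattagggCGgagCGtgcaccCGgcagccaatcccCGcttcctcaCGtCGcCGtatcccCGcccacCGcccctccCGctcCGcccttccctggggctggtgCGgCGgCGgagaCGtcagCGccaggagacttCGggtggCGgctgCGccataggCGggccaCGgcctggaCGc
POGLUT1: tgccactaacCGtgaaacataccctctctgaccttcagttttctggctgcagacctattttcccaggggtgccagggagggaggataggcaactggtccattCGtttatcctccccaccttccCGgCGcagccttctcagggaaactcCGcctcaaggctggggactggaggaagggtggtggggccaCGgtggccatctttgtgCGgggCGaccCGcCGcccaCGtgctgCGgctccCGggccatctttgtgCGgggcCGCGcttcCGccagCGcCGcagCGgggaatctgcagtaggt
The C1GALT1 window holds 27 CG dinucleotides and 64.3% G or C, and the POGLUT1 window 20 CG dinucleotides and 64% G or C, beside medians of 14 and 58.7% over 35116 promoter windows of the same length. On either strand, neither held the TATA box TATAAA, the AP-1 motif TGANTCA or the antioxidant response element core TGACNNNGC, which were in 11.5%, 7.71% and 13.3% of all windows. Over the 39 windows matched to 27 of the 36 members, TATAAA was found in 0, TGANTCA in 1 and TGACNNNGC in 3.

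Among the initiating enzymes, 7 of 11 tested were called higher with siGOLM1-1, 3 lower and 1 was not called, and 6 were called higher, 1 lower and 4 not called with siGOLM1-2. Over all genes tested, 23.7% were called higher and 23.8% lower with siGOLM1-1, and 21.8% and 23.2% with siGOLM1-2. GALNT1, a broadly expressed enzyme with a wide range of protein substrates, was at 439.6, 435, 442 and 368 CPM with siGOLM1-1, 243, 267, 252 and 249 CPM with siGOLM1-2, and 193, 187, 212 and 193 CPM in the control. Every siGOLM1-1 library was above every siGOLM1-2 library, and these were all above the control. GALNT1 rose with siGOLM1-1 (log2 fold change 1.10 with an SE of 0.07, adjusted p = 8.56e-08) and with siGOLM1-2 (0.37, SE 0.07, adjusted p = 0.00116), and was higher with siGOLM1-1 than with siGOLM1-2 by 0.74 on the log2 scale (SE 0.07, adjusted p = 1.88e-06). GALNT2, also broadly expressed and known for its part in lipoprotein metabolism, was at 403, 409, 449.6 and 387 CPM with siGOLM1-1, 358, 369, 343 and 448 CPM with siGOLM1-2, and 281, 282, 330.1 and 324 CPM in the control. All 8 knockdown libraries were above all control libraries, and the siRNA groups overlapped. GALNT2 rose with siGOLM1-1 (0.44, SE 0.09, adjusted p = 0.00161) and with siGOLM1-2 (0.32, SE 0.09, adjusted p = 0.0127), and the second call was lost with control replicates 3 and 4 alone (0.24).

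GALNT7, which prefers substrates that already carry GalNAc, was at 168, 135, 144 and 125 CPM with siGOLM1-1, 116, 126, 123 and 93.3 CPM with siGOLM1-2, and 95.4, 97.5, 89.8 and 86.5 CPM in the control. The siGOLM1-1 libraries were all above the control, and 1 siGOLM1-2 library was within the control range. GALNT7 rose with siGOLM1-1 (log2 fold change 0.63 with an SE of 0.10, adjusted p = 0.000219) and with siGOLM1-2 (0.31, SE 0.10, adjusted p = 0.0250). Its siGOLM1-2 call was lost without siGOLM1-2 replicate 1 (0.30), 2 (0.26) or 3 (0.27) or control replicate 3 (0.30) or 4 (0.28) and with control replicates 1 and 2 alone (0.25). Between the siRNAs it was called higher with siGOLM1-1 (0.32, SE 0.10, adjusted p = 0.0170), a call lost without siGOLM1-1 replicate 1 (0.24) and with library totals alone as the scaling (0.19). GALNT12, expressed mainly in the digestive tract, was at 15.7, 21.99, 21.7 and 23.4 CPM with siGOLM1-1, 11.1, 10.99, 10.9 and 13.7 CPM with siGOLM1-2, and 9.29, 10.03, 8.15 and 8.19 CPM in the control. The 3 groups did not overlap. GALNT12 rose with siGOLM1-1 (1.21, SE 0.13, adjusted p = 5.28e-06) and with siGOLM1-2 (0.39, SE 0.13, adjusted p = 0.0248) and was higher with siGOLM1-1 than with siGOLM1-2 (0.83, SE 0.13, adjusted p = 9.57e-05). The siGOLM1-2 call was lost without siGOLM1-2 replicate 4 (0.30) or control replicate 3 (0.35) or 4 (0.35) and with control replicates 1 and 2 alone (0.27). An antisense transcript covers 21.1% of GALNT12's exon bases in GENCODE 29, and the strand setting of the counting was not given in the sources used here.

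GALNT14, which glycosylates death receptors, was at 49.1, 52.8, 45.4 and 47.1 CPM with siGOLM1-1, 55.7, 57.8, 54.1 and 69.97 CPM with siGOLM1-2, and 41.3, 42.8, 39.9 and 40.2 CPM in the control. The 3 groups did not overlap, and here siGOLM1-2 was the highest. It rose with siGOLM1-1 (log2 fold change 0.24 with an SE of 0.08, adjusted p = 0.0271) and with siGOLM1-2 (0.53, SE 0.08, adjusted p = 0.000176), and was lower with siGOLM1-1 than with siGOLM1-2 (-0.29, SE 0.08, adjusted p = 0.00945). The siGOLM1-1 call was lost without siGOLM1-1 replicate 2 (0.20) or control replicate 3 (0.23) or 4 (0.23), with library totals alone as the scaling (0.19) and with control replicates 1 and 2 alone (0.21). GALNT11, which acts on the Notch1 receptor and on megalin, was at 64.05, 65.5, 64.8 and 70.3 CPM with siGOLM1-1, 56.2, 54.4, 55 and 51.1 CPM with siGOLM1-2, and 57.7, 57.3, 57.3 and 57.5 CPM in the control. The control libraries lay between the siRNA groups. GALNT11 rose with siGOLM1-1 (0.20, SE 0.06, adjusted p = 0.00994), was at a log2 fold change of -0.08 with siGOLM1-2 (SE 0.06, adjusted p = 0.252), and was higher with siGOLM1-1 than with siGOLM1-2 (0.29, SE 0.06, adjusted p = 0.000787). Its siGOLM1-1 call was lost with library totals alone as the scaling (0.15), with no filter (0.21) and with control replicates 1 and 2 alone (0.20).

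GALNT10, another enzyme that prefers partly glycosylated substrates, fell with siGOLM1-1. Its level was 155, 179.8, 165 and 175 CPM with siGOLM1-1, 354, 369.6, 340.2 and 373 CPM with siGOLM1-2, and 362, 347, 401 and 393 CPM in the control. The siGOLM1-1 libraries were all below the other 8, while the siGOLM1-2 and control ranges overlapped. The log2 fold change against control was -1.16 with siGOLM1-1 (SE 0.07, adjusted p = 4.10e-08) and -0.07 with siGOLM1-2 (SE 0.07, adjusted p = 0.477), and the siRNAs differed by -1.09 (SE 0.07, adjusted p = 4.00e-08). None of the alternatives run ended the siGOLM1-1 call or that of the direct comparison. GALNT4, which completes the glycosylation of clustered sites, was low, at 1.44, 0.960, 1.24 and 1.06 CPM with siGOLM1-1, 2.24, 2.29, 2.62 and 1.11 CPM with siGOLM1-2, and 1.56, 1.95, 3.60 and 2.80 CPM in the control. It was called lower with siGOLM1-1 than in the control (log2 fold change -1.07 with an SE of 0.29, adjusted p = 0.00774), a call lost with control replicates 1 and 2 alone (-0.57), and was at -0.26 with siGOLM1-2 (SE 0.28, adjusted p = 0.475). The direct difference (-0.81, SE 0.29, adjusted p = 0.0294) was lost without siGOLM1-1 replicate 2 (-0.73), 3 (-0.83) or 4 (-0.76) or siGOLM1-2 replicate 1 (-0.77), 2 (-0.76) or 3 (-0.68). The readthrough gene POC1B-GALNT4 covers 93.2% of the GALNT4 exon bases in GENCODE 29, so reads of the 2 can be split between them and its values are uncertain.

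GALNT5 and GALNT6 were among the members called in opposite directions. GALNT5 was at 8.89, 12.6, 14.6 and 12.6 CPM with siGOLM1-1, 52.3, 52.8, 53.4 and 65.1 CPM with siGOLM1-2, and 18.4, 15.8, 15.1 and 15.8 CPM in the control. The siGOLM1-2 libraries were all above 50 CPM and the siGOLM1-1 libraries all below the control. GALNT5 fell with siGOLM1-1 (log2 fold change -0.42 with an SE of 0.13, adjusted p = 0.0175), rose with siGOLM1-2 (1.78, SE 0.13, adjusted p = 3.73e-07) and differed between the siRNAs by -2.20 (SE 0.13, adjusted p = 2.01e-08). The fall with siGOLM1-1 was lost without control replicate 1 (-0.36) and with control replicates 3 and 4 alone (-0.33). GALNT6, an enzyme studied in breast cancer that modifies fibronectin, was at 14.6, 18.7, 18.3 and 16.2 CPM with siGOLM1-1, 5.00, 4.72, 4.91 and 5.05 CPM with siGOLM1-2, and 13.2, 13.3, 15.6 and 14.3 CPM in the control. The siGOLM1-2 libraries were all below the other 8, and the siGOLM1-1 and control ranges overlapped. GALNT6 was called higher with siGOLM1-1 (0.27, SE 0.09, adjusted p = 0.0312), fell with siGOLM1-2 (-1.52, SE 0.10, adjusted p = 1.18e-07) and differed between the siRNAs by 1.78 (SE 0.10, adjusted p = 8.16e-09). Its siGOLM1-1 call was lost without siGOLM1-1 replicate 2 (0.21) or 3 (0.23) or control replicate 1 (0.24), 2 (0.25) or 4 (0.27), with library totals alone as the scaling (0.21), with no filter (0.27), with the 2 groups alone in the fit (0.25) and with control replicates 3 and 4 alone (0.19). GALNT18, from a divergent branch of the family, averaged 31.6 ± 0.971 CPM with siGOLM1-1, 29.05 ± 4.49 CPM with siGOLM1-2, and 35.2 ± 12.3 CPM in the control (SD), and was called in none of the 3 comparisons. The control pairs of GALNT18 stood far apart, with 24.7 CPM in control replicates 1 and 2 and 45.6 CPM in control replicates 3 and 4, and its siGOLM1-1 difference was 0.35 with control replicates 1 and 2 alone (adjusted p = 0.0358) and -0.52 with replicates 3 and 4 alone (adjusted p = 0.00421). With siGOLM1-2 it was 0.23 with control replicates 1 and 2 alone (adjusted p = 0.158) and -0.63 with replicates 3 and 4 alone (adjusted p = 0.00128).

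Levels of different genes were compared per kilobase of annotated exon, the union of exons in GENCODE 29. Over the 12 GALNT genes the summed level was 210.5 ± 10.1 CPM per kb with siGOLM1-1, 189.7 ± 9.35 with siGOLM1-2 and 160.0 ± 9.51 in the control (SD). GALNT1, GALNT2 and GALNT10 made up 23.9%, 24.5% and 22.4% of that sum in the control, and the order of these 3 depended on the length used. With siGOLM1-1, GALNT1 made up 39.0% ± 1.61 of the sum and GALNT10 7.66% ± 0.712, against 23.9% ± 0.859 and 22.4% ± 0.339 in the control. With siGOLM1-2 the shares were 26.02% ± 1.40 for GALNT1 and 18.0% ± 0.387 for GALNT10, beside 25.8% ± 1.99 for GALNT2. GALNT2 made up 25.3% ± 0.952 with siGOLM1-1 and 24.5% ± 0.700 in the control. With the longest coding transcript as the length or with any library left out, alternatives chosen after seeing the data, the GALNT1 share ran from 33.0% to 39.8% with siGOLM1-1, from 21.5% to 26.7% with siGOLM1-2 and from 19.4% to 24.3% in the control. The GALNT10 share ran from 7.38% to 8.57% with siGOLM1-1, from 17.9% to 19.7% with siGOLM1-2 and from 22.3% to 24.0% in the control.

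**Figure D3:**
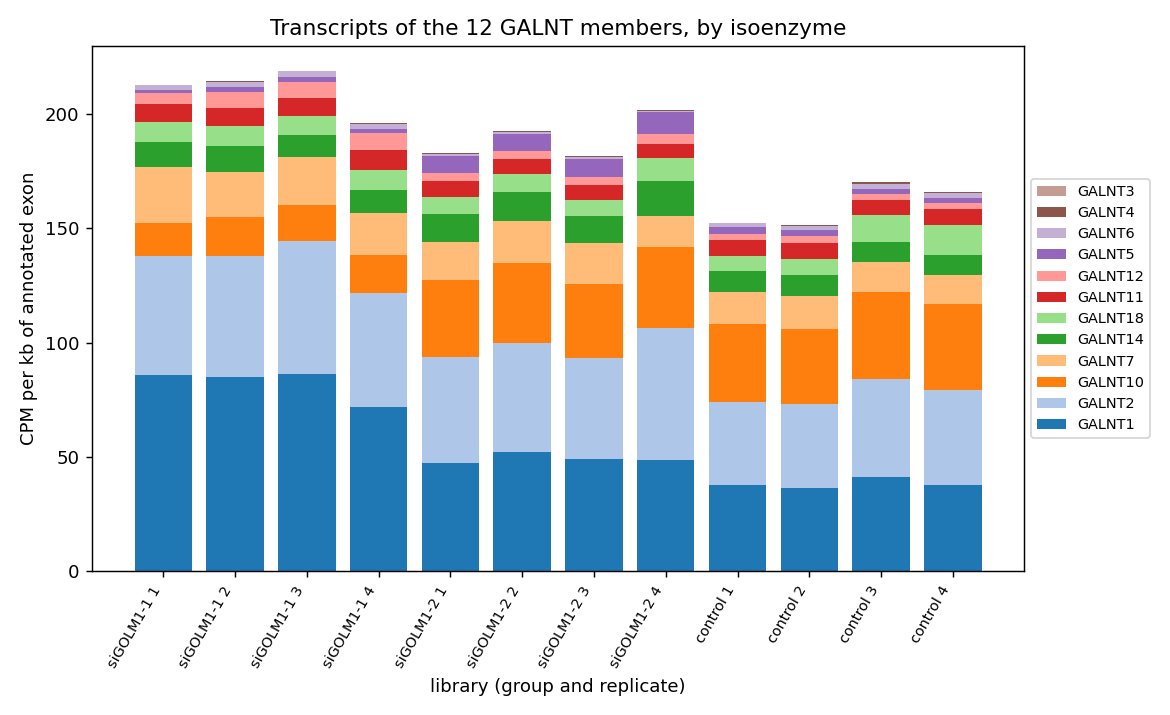
Level of the 12 GALNT genes per library, stacked as CPM per kb of annotated exon, with libraries ordered siGOLM1-1, siGOLM1-2, control. The GALNT1 segment averages 82.2 CPM per kb with siGOLM1-1, 49.3 with siGOLM1-2 and 38.3 in the control, and the GALNT10 segment 16.1 with siGOLM1-1, 34.2 with siGOLM1-2 and 35.8 in the control.

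Core 1 synthesis needs C1GALT1 and its chaperone C1GALT1C1, also known as Cosmc, without which the synthase does not fold. C1GALT1 was at 44.1, 43.3, 49.9 and 36.8 CPM with siGOLM1-1, 19.5, 20.9, 21.3 and 21.95 CPM with siGOLM1-2, and 39.9, 38.5, 32.4 and 33.5 CPM in the control. All siGOLM1-2 libraries were below the other 8, and 1 siGOLM1-1 library was within the control range. C1GALT1 fell with siGOLM1-2 (log2 fold change -0.79 with an SE of 0.10, adjusted p = 2.58e-05) and was higher with siGOLM1-1 than with siGOLM1-2 by 1.06 (SE 0.10, adjusted p = 8.94e-07). It was called higher with siGOLM1-1 than in the control (0.27, SE 0.10, adjusted p = 0.0325), a call lost without siGOLM1-1 replicate 1 (0.26), 2 (0.27) or 3 (0.20) or control replicate 3 (0.22) or 4 (0.24), with library totals alone as the scaling (0.21), with the 2 groups alone in the fit (0.26) and with control replicates 1 and 2 alone (0.15). C1GALT1C1 was at 46.3, 53.8, 58.1 and 50.2 CPM with siGOLM1-1, 41.7, 42.6, 38.5 and 42.7 CPM with siGOLM1-2, and 41.3, 38.98, 43.7 and 43.2 CPM in the control. Its siGOLM1-1 libraries were all above the other 8, while the siGOLM1-2 and control ranges overlapped. It rose with siGOLM1-1 (0.32, SE 0.08, adjusted p = 0.00410), was at -0.02 with siGOLM1-2 (SE 0.08, adjusted p = 0.888), and differed between the siRNAs by 0.33 (SE 0.08, adjusted p = 0.00242).

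Of the 6 branching and extending enzymes, 3 were called higher and 2 lower with siGOLM1-1, and 2 higher and 2 lower with siGOLM1-2. Beside these, 47.5% of all genes tested were called in either direction with siGOLM1-1 and 45% with siGOLM1-2. GCNT1, which makes the core 2 branch, was at 7.81, 5.69, 6.18 and 5.40 CPM with siGOLM1-1, 6.42, 6.33, 7.09 and 5.61 CPM with siGOLM1-2, and 3.86, 3.53, 2.86 and 2.80 CPM in the control. All 8 knockdown libraries were above the control and the siRNA groups overlapped. GCNT1 rose by 0.94 on the log2 scale with siGOLM1-1 (SE 0.15, adjusted p = 0.000151) and by 0.96 with siGOLM1-2 (SE 0.15, adjusted p = 0.000151). GCNT3, the mucin-type enzyme of core 2 and core 4 and among the most abundant members per kb, was at 247, 325, 306 and 292 CPM with siGOLM1-1, 233, 227, 225 and 246 CPM with siGOLM1-2, and 174, 166, 189 and 172 CPM in the control. The 3 groups were separate: each siGOLM1-1 library was above each siGOLM1-2 library, and these were all above the control. It rose with siGOLM1-1 (log2 fold change 0.74 with an SE of 0.08, adjusted p = 7.76e-06) and siGOLM1-2 (0.41, SE 0.08, adjusted p = 0.00119), with 0.33 between the siRNAs (SE 0.08, adjusted p = 0.00362). GCNT2, which adds the I branch to lactosamine chains, was at 19.3, 23.1, 23.2 and 19.97 CPM with siGOLM1-1, 18.4, 20.1, 18.5 and 20.6 CPM with siGOLM1-2, and 28.9, 25.3, 28.4 and 26.9 CPM in the control. Here the control libraries were the highest. GCNT2 fell with siGOLM1-1 (-0.36, SE 0.08, adjusted p = 0.00314) and siGOLM1-2 (-0.50, SE 0.08, adjusted p = 0.000303), and the siRNAs differed by 0.14 (SE 0.08, adjusted p = 0.165).

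GCNT4, a further core 2 enzyme, was low, at 1.34, 1.19, 2.23 and 1.63 CPM with siGOLM1-1, 0.383, 0.389, 0.568 and 0.855 CPM with siGOLM1-2, and 0.520, 0.529, 0.191 and 0.242 CPM in the control. The siGOLM1-1 libraries were all above the other 8. It rose with siGOLM1-1 (log2 fold change 2.10 with an SE of 0.35, adjusted p = 0.000268) and differed between the siRNAs by 1.54 (SE 0.33, adjusted p = 0.00149), while siGOLM1-2 was at 0.57 against control (SE 0.38, adjusted p = 0.239). That siGOLM1-2 difference was 0.06 with control replicates 1 and 2 alone (adjusted p = 0.922) and 1.35 with replicates 3 and 4 alone (adjusted p = 0.0304). B3GNT3, which extends core 1 with GlcNAc, was at 2.38, 4.88, 5.51 and 4.79 CPM with siGOLM1-1, 13.5, 14.9, 14.1 and 14.6 CPM with siGOLM1-2, and 6.98, 7.77, 11.7 and 13.2 CPM in the control. No groups overlapped, with siGOLM1-1 the lowest and siGOLM1-2 the highest, although the control libraries covered a wide range. B3GNT3 fell with siGOLM1-1 (-1.18, SE 0.24, adjusted p = 0.00139) and was lower than with siGOLM1-2 (-1.71, SE 0.24, adjusted p = 5.88e-05). Its siGOLM1-2 difference from control was 0.53 (SE 0.23, adjusted p = 0.0847) and passed the threshold without control replicate 4 (0.70), with library totals alone as the scaling (0.61), with the DESeq2 Wald test (0.55), with the 2 groups alone in the fit (0.53) and with control replicates 1 and 2 alone (0.95). B3GNT5, which acts mainly on glycolipids by starting the lacto-series chain, was at 17.4, 23.9, 26.7 and 22.4 CPM with siGOLM1-1, 11.6, 11.5, 10.8 and 13.9 CPM with siGOLM1-2, and 14.9, 14.3, 33.5 and 33.6 CPM in the control. The control pair of replicates 3 and 4 was above every other library. B3GNT5 was called lower with siGOLM1-2 (-1.01, SE 0.26, adjusted p = 0.00717), a call lost with control replicates 1 and 2 alone (-0.29), and higher with siGOLM1-1 than with siGOLM1-2 (0.91, SE 0.26, adjusted p = 0.00984). With siGOLM1-1 it was at -0.09 (SE 0.26, adjusted p = 0.785), and at 0.63 with control replicates 1 and 2 alone (adjusted p = 0.00711) and -0.56 with replicates 3 and 4 alone (adjusted p = 0.00825). B3GNT5 shares 16.2% of its exon bases with MCF2L2 on the opposite strand.

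Among the sialyltransferases, 5 of 7 tested were called higher and 1 lower with siGOLM1-1, and 4 higher and 0 lower with siGOLM1-2, where 3 were not called. The shares of all genes were 23.7% higher and 23.8% lower with siGOLM1-1, and 21.8% and 23.2% with siGOLM1-2. Ranges were fully separate from the control for 1 of the 7 with siGOLM1-1, beside 41% of all genes. With siGOLM1-2 they were separate for 4, beside 45.9% of all genes. ST6GALNAC1, which makes the truncated sialyl-Tn antigen, was low, at 0.526, 0.828, 1.24 and 0.762 CPM with siGOLM1-1, 4.64, 3.52, 3.91 and 2.74 CPM with siGOLM1-2, and 1.16, 1.23, 0.487 and 0.523 CPM in the control. The siGOLM1-2 libraries were all above the other 8, and the siGOLM1-1 and control ranges overlapped. ST6GALNAC1 rose with siGOLM1-2 (log2 fold change 2.13 with an SE of 0.32, adjusted p = 0.000118), was at -0.03 with siGOLM1-1 (SE 0.33, adjusted p = 0.955) and differed between the siRNAs by -2.16 (SE 0.32, adjusted p = 5.98e-05). The rise with siGOLM1-2 was 1.63 with control replicates 1 and 2 alone (adjusted p = 0.00129) and 2.89 with replicates 3 and 4 alone (adjusted p = 4.30e-05). ST6GALNAC2, which sialylates core 1 chains, was at 3.54, 3.58, 3.91 and 4.55 CPM with siGOLM1-1, 1.92, 1.96, 2.27 and 0.915 CPM with siGOLM1-2, and 1.12, 1.27, 0.805 and 0.846 CPM in the control. Its siGOLM1-1 libraries were all above the other 8. ST6GALNAC2 rose with siGOLM1-1 (1.95, SE 0.25, adjusted p = 2.41e-05) and siGOLM1-2 (0.81, SE 0.25, adjusted p = 0.0172), and was higher with siGOLM1-1 than with siGOLM1-2 (1.14, SE 0.23, adjusted p = 0.000994). The siGOLM1-2 call was lost without siGOLM1-2 replicate 3 (0.67) or control replicate 3 (0.71) and with control replicates 1 and 2 alone (0.56). In GENCODE 29 another protein-coding locus on the same strand covers 38.5% of the ST6GALNAC2 exon bases, so its reads may be split. ST6GALNAC1 and ST6GALNAC2 lie near each other, with 1 protein-coding gene between them in RefSeq.

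ST6GALNAC4, which adds a further sialic acid to sialylated core 1, was at 20.9, 36.9, 32.7 and 34.6 CPM with siGOLM1-1, 39.03, 38.9, 36.3 and 49.97 CPM with siGOLM1-2, and 21.4, 21.04, 25.1 and 24.1 CPM in the control. Each siGOLM1-2 library was above the control, and siGOLM1-1 replicate 1 was below it. ST6GALNAC4 rose with siGOLM1-2 (log2 fold change 0.84 with an SE of 0.16, adjusted p = 0.000651) and was called higher with siGOLM1-1 (0.45, SE 0.15, adjusted p = 0.0287), a call lost without siGOLM1-1 replicate 2 (0.36), 3 (0.43) or 4 (0.40) or control replicate 1 (0.42) or 2 (0.42) and with control replicates 3 and 4 alone (0.36). The direct difference (-0.39, SE 0.15, adjusted p = 0.0438) was lost without siGOLM1-1 replicate 1 (-0.24) or 3 (-0.42) or siGOLM1-2 replicate 1 (-0.42), 2 (-0.42) or 4 (-0.28) and with no filter (-0.39). ST3GAL2, which sialylates the galactose of core 1 and of gangliosides, was at 45.2, 63.3, 58.2 and 59.2 CPM with siGOLM1-1, 64.4, 60.5, 55.9 and 68.2 CPM with siGOLM1-2, and 43.01, 43.9, 49.4 and 48.2 CPM in the control. Each siGOLM1-2 library was above the control. ST3GAL2 rose with siGOLM1-2 (0.43, SE 0.10, adjusted p = 0.00320) and was called higher with siGOLM1-1 (0.29, SE 0.10, adjusted p = 0.0282), a call lost without siGOLM1-1 replicate 2 (0.23), 3 (0.28) or 4 (0.27) or control replicate 1 (0.26) or 2 (0.28) and with control replicates 3 and 4 alone (0.22). The siRNAs differed by -0.14 (SE 0.10, adjusted p = 0.252).

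Calls of the other sialyltransferases were lost under several alternatives. ST3GAL1, the main capping enzyme of core 1 galactose, averaged 43.1 ± 7.60 CPM with siGOLM1-1, 28.4 ± 6.03 CPM with siGOLM1-2, and 26.9 ± 11.3 CPM in the control (SD), with 17.1 CPM in control replicates 1 and 2 and 36.6 CPM in control replicates 3 and 4. It was called higher with siGOLM1-1 (log2 fold change 0.68 with an SE of 0.26, adjusted p = 0.0443), a call lost without siGOLM1-1 replicate 2 (0.63), 3 (0.65) or 4 (0.63) or control replicate 1 (0.50) or 2 (0.54), with no filter (0.68), with the 2 groups alone in the fit (0.67) and with control replicates 3 and 4 alone (0.24). With siGOLM1-2 it was at 0.08 (SE 0.26, adjusted p = 0.823), and at 0.73 with control replicates 1 and 2 alone (adjusted p = 0.0117) and -0.35 with replicates 3 and 4 alone (adjusted p = 0.151). The direct difference was 0.60 (SE 0.26, adjusted p = 0.0642) and passed the threshold without siGOLM1-1 replicate 1 (0.72) or siGOLM1-2 replicate 4 (0.76), with the DESeq2 Wald test (0.59) and with the 2 groups alone in the fit (0.57). ST6GALNAC6, which acts mainly on gangliosides, averaged 33.8 ± 5.28 CPM with siGOLM1-1, 30.7 ± 3.08 CPM with siGOLM1-2, and 26.98 ± 1.11 CPM in the control (SD). Its call with siGOLM1-1 (0.32, SE 0.11, adjusted p = 0.0246) was lost without siGOLM1-1 replicate 2 (0.28) or 4 (0.26) or control replicate 1 (0.29), with control replicates 1 and 2 alone (0.36) and with control replicates 3 and 4 alone (0.30), and another protein-coding locus covers 47.0% of its exon bases on the same strand. With siGOLM1-2, ST6GALNAC6 was at 0.19 (SE 0.11, adjusted p = 0.176), with all libraries above the control. It passed the threshold in 1 of 17 alternatives. ST6GALNAC3, an enzyme of disialylated core 1 and gangliosides, averaged 3.56 ± 0.927 CPM with siGOLM1-1, 4.41 ± 0.400 CPM with siGOLM1-2, and 5.41 ± 1.66 CPM in the control (SD). It was called lower with siGOLM1-1 (-0.61, SE 0.22, adjusted p = 0.0314), a call lost without siGOLM1-1 replicate 1 (-0.51), 2 (-0.59) or 4 (-0.55) or control replicate 3 (-0.46) or 4 (-0.49), with the 2 groups alone in the fit (-0.62) and with control replicates 1 and 2 alone (-0.16). With siGOLM1-2, ST6GALNAC3 was at -0.30 (SE 0.21, adjusted p = 0.278). That difference was 0.15 with control replicates 1 and 2 alone (adjusted p = 0.606) and -0.62 with replicates 3 and 4 alone (adjusted p = 0.0231). ST6GALNAC4 and ST6GALNAC6 are neighbours with 0 protein-coding genes between them in RefSeq, as are ST6GALNAC3 and the untested ST6GALNAC5.

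**Figure D4:**
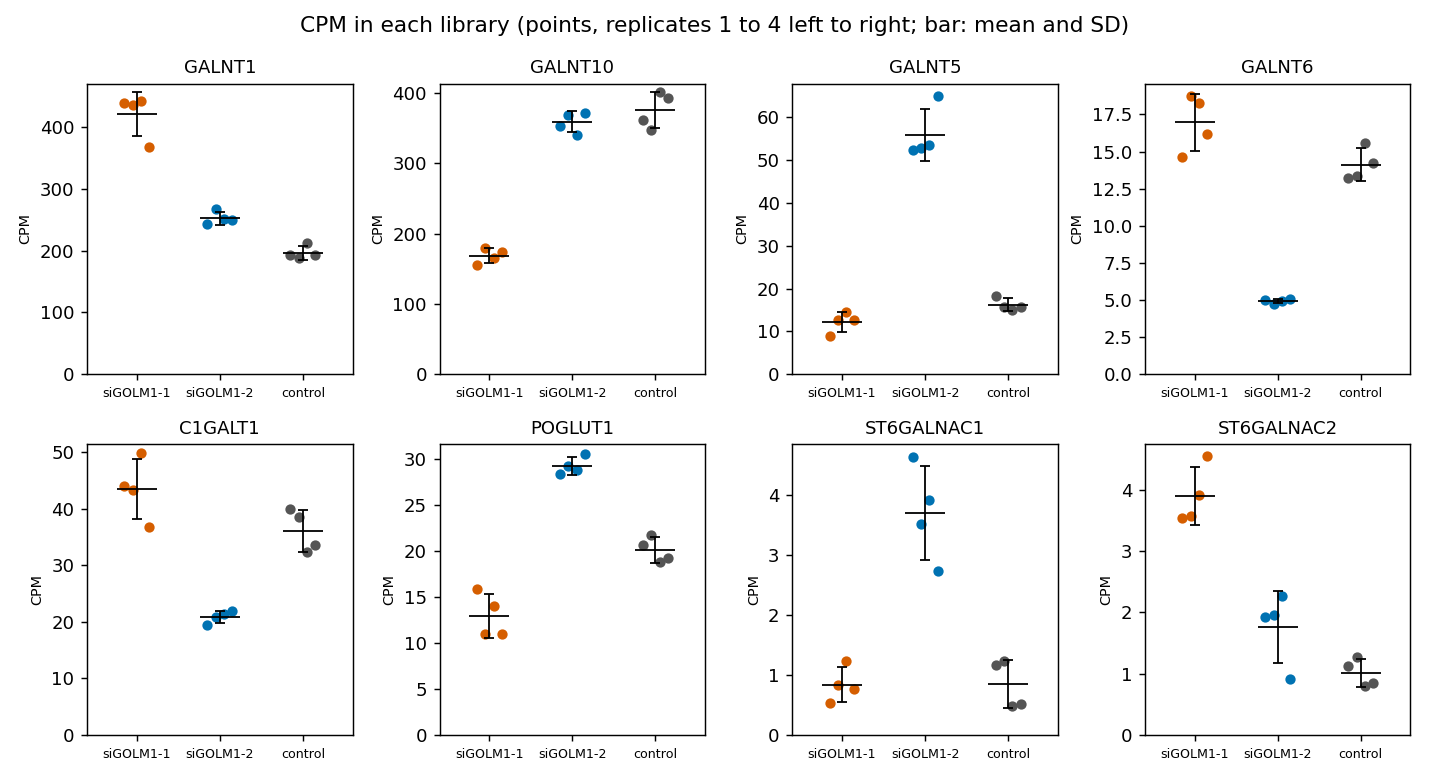
CPM of 8 members in each library (points), with the mean and SD of each group, ordered siGOLM1-1, siGOLM1-2, control, with an axis of its own for each gene. GALNT1 rises with both siRNAs, GALNT10 is low with siGOLM1-1, GALNT5 and ST6GALNAC1 are high with siGOLM1-2, and C1GALT1 and GALNT6 are low with siGOLM1-2.

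POMT1 and POMT2 form a complex that adds O-mannose to dystroglycan. POMT2 was at 43.2, 38.5, 42 and 45.5 CPM with siGOLM1-1, 53.5, 52.9, 54.3 and 51.6 CPM with siGOLM1-2, and 64.2, 65.5, 66.04 and 64.8 CPM in the control. The 3 groups did not overlap, with the control the highest. POMT2 fell with siGOLM1-1 (log2 fold change -0.62 with an SE of 0.06, adjusted p = 2.86e-06) and siGOLM1-2 (-0.30, SE 0.06, adjusted p = 0.00151), and was lower with siGOLM1-1 than with siGOLM1-2 (-0.33, SE 0.06, adjusted p = 0.000509). Its partner POMT1 was at 27.8, 25.3, 30.05 and 31.04 CPM with siGOLM1-1, 39.2, 37.1, 42.2 and 38.5 CPM with siGOLM1-2, and 27.8, 31.3, 32.3 and 34.97 CPM in the control. The siGOLM1-2 libraries were all above the other 8. POMT1 rose with siGOLM1-2 (0.31, SE 0.09, adjusted p = 0.00923), a call lost with control replicates 3 and 4 alone (0.24). With siGOLM1-1 it was at -0.15 against control (SE 0.09, adjusted p = 0.179) and at -0.46 against siGOLM1-2 (SE 0.09, adjusted p = 0.000492).

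All 3 members of O-fucose and O-glucose initiation were called with siGOLM1-1, 1 higher and 2 lower, and 1 was called with siGOLM1-2, higher. Of all genes tested, 47.5% were called with siGOLM1-1 and 45% with siGOLM1-2. POFUT1, which adds O-fucose to EGF repeats and is needed for Notch signalling, was at 78.05, 80.1, 81 and 67.9 CPM with siGOLM1-1, 119.7, 121, 116 and 118 CPM with siGOLM1-2, and 115, 121, 114 and 106 CPM in the control. The siGOLM1-1 libraries were all below the other 8. POFUT1 fell with siGOLM1-1 (log2 fold change -0.57 with an SE of 0.07, adjusted p = 1.46e-05) and was lower than with siGOLM1-2 (-0.63, SE 0.07, adjusted p = 3.77e-06), while siGOLM1-2 was at 0.06 against control (SE 0.07, adjusted p = 0.483). POFUT2, which fucosylates thrombospondin repeats, was at 37.2, 37.05, 41.3 and 47.6 CPM with siGOLM1-1, 27.2, 24.97, 26.3 and 27.6 CPM with siGOLM1-2, and 27.3, 30.9, 28.6 and 32.3 CPM in the control. Its siGOLM1-1 libraries were all above the other 8. POFUT2 rose with siGOLM1-1 (0.45, SE 0.09, adjusted p = 0.000899) and differed between the siRNAs by 0.62 (SE 0.09, adjusted p = 5.01e-05), with siGOLM1-2 at -0.17 (SE 0.09, adjusted p = 0.141). POGLUT1, whose promoter window is printed above, was at 15.8, 10.96, 14 and 10.99 CPM with siGOLM1-1, 28.4, 29.3, 28.9 and 30.6 CPM with siGOLM1-2, and 20.7, 21.8, 18.8 and 19.2 CPM in the control. The siGOLM1-1 libraries were all below the control and the siGOLM1-2 libraries all above it. POGLUT1 fell with siGOLM1-1 (-0.63, SE 0.11, adjusted p = 0.000389), rose with siGOLM1-2 (0.54, SE 0.11, adjusted p = 0.00132) and differed between the siRNAs by -1.18 (SE 0.11, adjusted p = 1.20e-06). No alternative run ended any of these 3 POGLUT1 calls.

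The Fringe enzymes, which lengthen O-fucose on Notch with GlcNAc and so change its choice of ligand, were called in none of the 3 comparisons. RFNG averaged 38.9 ± 7.57 CPM with siGOLM1-1, 32.4 ± 2.95 CPM with siGOLM1-2, and 32.1 ± 4.20 CPM in the control (SD). Its log2 fold changes were 0.28 with siGOLM1-1 (SE 0.13, adjusted p = 0.104) and 0.02 with siGOLM1-2 (SE 0.13, adjusted p = 0.931). RFNG passed the threshold in 1 of 17 alternatives with siGOLM1-1 and in 1 of 15 between the siRNAs. LFNG averaged 15.2 ± 2.26 CPM with siGOLM1-1, 12.1 ± 1.17 CPM with siGOLM1-2, and 12.1 ± 3.39 CPM in the control (SD). Its log2 fold changes were 0.33 with siGOLM1-1 (SE 0.17, adjusted p = 0.138) and 0.00 with siGOLM1-2 (SE 0.17, adjusted p = 0.985). The siGOLM1-1 difference of LFNG passed the threshold in 2 of 17 alternatives. MFNG averaged 1.96 ± 0.575 CPM with siGOLM1-1, 2.37 ± 0.525 CPM with siGOLM1-2, and 2.05 ± 0.582 CPM in the control (SD). Its log2 fold changes were -0.07 with siGOLM1-1 (SE 0.25, adjusted p = 0.847) and 0.20 with siGOLM1-2 (SE 0.24, adjusted p = 0.527). GPS1 on the opposite strand shares 21.6% of the RFNG exon bases.

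Several calls were lost with a control pair alone. Such a fit holds fewer control libraries, so a call can also be lost while the difference stays much the same. For ST6GALNAC6 with siGOLM1-1 the difference was 0.32 with all controls, where it was called. It was 0.36 with control replicates 1 and 2 alone and 0.30 with replicates 3 and 4 alone, called with neither. The share of calls over all genes that held with either pair was not counted. Of the 18 members called higher with siGOLM1-1, 10 were called higher with either control pair alone, and of the 9 called lower, 6 were called lower with either. With siGOLM1-2, 9 of 14 higher calls and 4 of 5 lower calls were made with either pair. The members more than 1.5-fold higher in control replicates 3 and 4 were GALNT4, GALNT18, B3GNT3, B3GNT5, ST6GALNAC3, ST3GAL1 and LFNG, and those more than 1.5-fold lower were GCNT4, ST6GALNAC1 and MFNG. For LFNG, with 9.18 CPM in control replicates 1 and 2 and 14.9 CPM in control replicates 3 and 4, the siGOLM1-1 difference was 0.72 with control replicates 1 and 2 alone (adjusted p = 0.00224) and 0.03 with replicates 3 and 4 alone (adjusted p = 0.892). For GCNT4 it was 1.60 with control replicates 1 and 2 alone (adjusted p = 0.00445) and 2.87 with replicates 3 and 4 alone (adjusted p = 0.000199). B3GNT3 fell with siGOLM1-1 against either pair, and was at -0.76 with control replicates 1 and 2 alone (adjusted p = 0.0233) and -1.50 with replicates 3 and 4 alone (adjusted p = 0.000250).

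**Figure D5:**
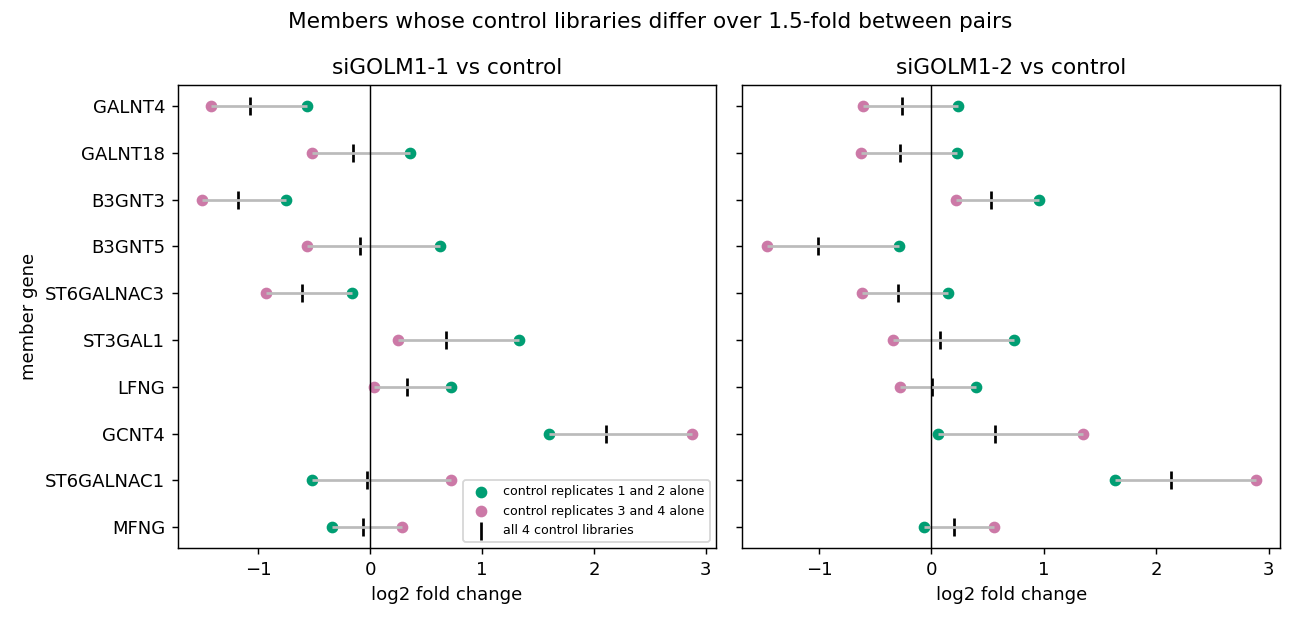
Log2 fold change with control replicates 1 and 2 or control replicates 3 and 4 as the control group, joined by a line, for the 10 members whose mean level differed more than 1.5-fold between these control pairs. With siGOLM1-1 the values of GALNT18, B3GNT5, ST6GALNAC1 and MFNG lie on opposite sides of 0, as do those of GALNT4, GALNT18, ST6GALNAC3, ST3GAL1, LFNG and MFNG with siGOLM1-2. With both pairs GCNT4 is above 0 with either siRNA, and B3GNT3 is below 0 with siGOLM1-1 and above 0 with siGOLM1-2.

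Genes around these pathways were counted in 5 further lists, and the alternatives run for the members were also run for the genes named from them, a step chosen after seeing the data. Beside each list stand the shares of all genes tested: 23.7% called higher and 23.8% lower with siGOLM1-1, and 21.8% and 23.2% with siGOLM1-2. Between the siRNAs the shares were 27.9% and 26.5%. In the O-mannose and dystroglycan pathway, 6 of 16 tested were called higher and 3 lower with siGOLM1-1, 4 and 2 with siGOLM1-2, and 4 and 3 between the siRNAs. LARGE, which adds the laminin-binding polymer to dystroglycan, rose with siGOLM1-1 (log2 fold change 0.92 with an SE of 0.10, adjusted p = 7.03e-06) and siGOLM1-2 (0.72, SE 0.10, adjusted p = 7.36e-05). B3GNT1 fell with siGOLM1-1 (-0.38) and was called higher with siGOLM1-2 (0.25), a call lost with control replicates 1 and 2 alone (0.21). TMEM5, which transfers xylose in the same chain, rose with siGOLM1-1 (0.42) and was called higher with siGOLM1-2 (0.26), a call lost without siGOLM1-2 replicate 1 (0.26), 2 (0.26) or 4 (0.24) or control replicate 3 (0.22) or 4 (0.21) and with control replicates 1 and 2 alone (0.12). The kinase POMK was called lower with siGOLM1-1 (-0.99) and siGOLM1-2 (-1.38), and the first call was lost with control replicates 3 and 4 alone (-0.69). POMGNT1, which adds GlcNAc to O-mannose, was at 0.13 with siGOLM1-1 (adjusted p = 0.0889), a difference called higher with the DESeq2 Wald test (0.14) and with control replicates 3 and 4 alone (0.22). With siGOLM1-2 it was called lower (-0.25), a call lost with library totals alone as the scaling (-0.17) and with control replicates 3 and 4 alone (-0.15). Between the siRNAs the smallest p were those of B3GNT1 (-0.63), POMGNT1 (0.38) and DPM2, a subunit of the dolichol-phosphate-mannose synthase (-0.63). Against control, DPM2 was called lower with siGOLM1-1 (-0.40), a call lost with control replicates 1 and 2 alone. With siGOLM1-2 it was at 0.23 (adjusted p = 0.0785) and passed the threshold with library totals alone as the scaling. Among 7 partners of EGF repeat and thrombospondin repeat glycosylation, 4 were called higher and 1 lower with siGOLM1-1, 1 and 0 with siGOLM1-2, and 3 and 2 between the siRNAs. KDELC1, an O-glucosyltransferase of EGF repeats, averaged 2.96 ± 0.620 CPM with siGOLM1-1, 15.8 ± 0.690 CPM with siGOLM1-2, and 12.8 ± 1.14 CPM in the control (SD), a log2 fold change of -2.10 with siGOLM1-1 (adjusted p = 4.61e-08), 0.30 with siGOLM1-2 (adjusted p = 0.0594) and -2.41 between them (adjusted p = 8.88e-09). Its siGOLM1-2 difference passed the threshold with DESeq2 size factors (RLE) (0.32), with library totals alone as the scaling (0.38), with the DESeq2 Wald test (0.32) and with the 2 groups alone in the fit (0.31). GXYLT1, which adds xylose to O-glucose, rose with siGOLM1-1 (1.44), was at 0.11 with siGOLM1-2 (adjusted p = 0.474) and differed between the siRNAs by 1.33. XXYLT1, which adds the next xylose, rose by 0.33 with siGOLM1-1 and was at 0.13 with siGOLM1-2 (adjusted p = 0.107), a difference that passed the threshold with library totals alone as the scaling (0.20) and with the DESeq2 Wald test (0.14). EOGT, which adds O-GlcNAc to EGF repeats, rose by 0.57 with siGOLM1-2 and differed between the siRNAs by -0.33. It was also called higher with siGOLM1-1 (0.24), a call lost without siGOLM1-1 replicate 1 (0.21) or 3 (0.22) or control replicate 2 (0.24) or 4 (0.22), with library totals alone as the scaling (0.19), with no filter (0.25), with the 2 groups alone in the fit (0.23) and with control replicates 1 and 2 alone (0.21).

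Of 19 Notch receptors, ligands and targets tested, 9 were called higher and 5 lower with siGOLM1-1, 9 and 3 with siGOLM1-2, and 6 and 5 between the siRNAs. In either direction, 47.5%, 45% and 54.4% of all genes tested were called in these comparisons. With siGOLM1-1 the receptors NOTCH3 (log2 fold change 1.37 with an SE of 0.13, adjusted p = 1.92e-06) and NOTCH1 (1.21, SE 0.14, adjusted p = 1.51e-05) and the target HES4 (1.52, SE 0.18, adjusted p = 1.19e-05) rose. With siGOLM1-2, NOTCH3 (0.48) and NOTCH1 (0.37) were also called higher, and HES4 was at -0.29 (adjusted p = 0.203). The NOTCH3 call was lost with control replicates 1 and 2 alone (0.38), and the NOTCH1 call without siGOLM1-2 replicate 1 (0.31), 2 (0.34) or 3 (0.35) or control replicate 3 (0.30) or 4 (0.33), with no filter (0.36) and with control replicates 1 and 2 alone (0.21). The targets HES1, HEY1 and HEYL were chosen after their values were seen, since they were called lower with siGOLM1-1. Their log2 fold changes with siGOLM1-1 were -0.69 for HES1 (adjusted p = 0.0341), -0.83 for HEY1 (adjusted p = 0.0163) and -0.44 for HEYL (adjusted p = 0.00755). The HES1 call was lost in 8 of 17 alternatives, the HEY1 call with control replicates 1 and 2 alone (-0.66) and the HEYL call with control replicates 1 and 2 alone (-0.25). With siGOLM1-2, HES1 was at -0.28 (adjusted p = 0.378) and HEYL at -0.03 (adjusted p = 0.872), and HEY1 was called higher (0.64, adjusted p = 0.0442), a call lost in 10 of 17 alternatives. The ligand DLL4 rose with siGOLM1-1 (1.38, SE 0.32, adjusted p = 0.00281) and siGOLM1-2 (1.87, SE 0.31, adjusted p = 0.000293), as did the coactivator MAML1 (0.55 with siGOLM1-1, adjusted p = 3.30e-05, and 0.47 with siGOLM1-2, adjusted p = 0.000151). The sheddase ADAM10 rose with siGOLM1-1 (0.41, adjusted p = 0.000931) and fell with siGOLM1-2 (-0.52, adjusted p = 0.000171). The siRNAs differed in HES4 (1.81), ADAM10 (0.93) and the coactivator MAML3 (0.81). Against control, MAML3 fell with siGOLM1-2 (-0.58, adjusted p = 0.000514) and was at 0.24 with siGOLM1-1 (adjusted p = 0.0738). The siGOLM1-1 difference passed the threshold in 3 of 17 alternatives.

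A further list holds other mucin-type enzymes, enzymes that extend or cap their chains, and the O-GlcNAc enzymes OGT and MGEA5, which act on proteins of the cytosol and nucleus and make no mucin-type chain. Of its 32 genes 22 were tested, and 9 were called higher and 2 lower with siGOLM1-1, 6 and 2 with siGOLM1-2, and 7 and 4 between the siRNAs. The shares of all genes called in either direction were 47.5%, 45% and 54.4%. The GlcNAc-transferase B3GNT7 averaged 12.9 ± 4.48 CPM with siGOLM1-1, 8.84 ± 0.955 CPM with siGOLM1-2, and 2.96 ± 0.322 CPM in the control (SD) and rose with siGOLM1-1 (2.12, SE 0.24, adjusted p = 1.03e-05) and siGOLM1-2 (1.58, SE 0.24, adjusted p = 0.000139). B3GNT9 rose with siGOLM1-1 (1.02) and was called higher with siGOLM1-2 (0.32), a call lost without siGOLM1-2 replicate 1 (0.31), 2 (0.32) or 3 (0.31) or control replicate 1 (0.26) or 2 (0.29) and with control replicates 3 and 4 alone (0.18). MGEA5, the enzyme that removes O-GlcNAc, rose with siGOLM1-1 (0.53) and was at 0.02 with siGOLM1-2 (adjusted p = 0.849). The sialyltransferase ST3GAL4 rose with siGOLM1-1 (1.20) and siGOLM1-2 (1.26), and GALNT9 rose with siGOLM1-1 (2.02, adjusted p = 2.53e-05) and siGOLM1-2 (1.74, adjusted p = 0.000106). The direct comparison gave B4GALT2 (0.63), MGEA5 (0.51) and ST3GAL3 (0.79) higher with siGOLM1-1. Against control, B4GALT2 was called higher with siGOLM1-1 (0.29) and lower with siGOLM1-2 (-0.35), as was ST3GAL3 (0.47 and -0.32). Both siGOLM1-1 calls were lost with control replicates 1 and 2 alone, and the siGOLM1-2 call of ST3GAL3 in 8 of 17 alternatives.

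Nucleotide sugars are the donors of these transferases. Of 26 genes of their synthesis and transport, 11 were called higher and 3 lower with siGOLM1-1, 7 and 3 with siGOLM1-2, and 13 and 7 between the siRNAs. Counting both directions, 47.5%, 45% and 54.4% of all genes tested were called in the same comparisons. SLC35A4, a member of the nucleotide sugar transporter family, averaged 20.5 ± 2.16 CPM with siGOLM1-1, 111 ± 9.61 CPM with siGOLM1-2, and 128 ± 9.40 CPM in the control (SD). It fell with siGOLM1-1 (log2 fold change -2.64 with an SE of 0.09, adjusted p = 4.50e-10), was at -0.20 with siGOLM1-2 (adjusted p = 0.0784) and differed between the siRNAs by -2.44 (adjusted p = 3.36e-10). The transporter SLC35D2 averaged 72.1 ± 9.74 CPM with siGOLM1-1, 13.8 ± 1.84 CPM with siGOLM1-2, and 33.8 ± 2.96 CPM in the control (SD), rising with siGOLM1-1 (1.09, SE 0.11, adjusted p = 4.41e-06) and falling with siGOLM1-2 (-1.30, SE 0.12, adjusted p = 1.80e-06), and the siRNAs differed by 2.39 (adjusted p = 3.23e-09). GNPNAT1, of UDP-GlcNAc synthesis, rose with siGOLM1-1 (1.06) and siGOLM1-2 (0.49), and the second call was lost with control replicates 1 and 2 alone (0.35). UGP2, which makes UDP-glucose, averaged 171 ± 14.1 CPM with siGOLM1-1, 74.3 ± 3.10 CPM with siGOLM1-2, and 167 ± 11.8 CPM in the control (SD), fell with siGOLM1-2 (-1.17, SE 0.07, adjusted p = 1.10e-07), was at 0.03 with siGOLM1-1 (adjusted p = 0.751) and was higher with siGOLM1-1 than with siGOLM1-2 (1.20). GMDS, the first enzyme of GDP-fucose synthesis, rose with siGOLM1-2 (0.85) and was at 0.10 with siGOLM1-1 (adjusted p = 0.263).

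In the authors' deposited tables, made with DESeq2, 18 members were called higher and 10 lower with siGOLM1-1, and 14 higher and 5 lower with siGOLM1-2. The shares of all genes called in those tables were not counted, so these counts serve to compare calls alone. GALNT3 is 1 of those 10 and was among the genes not tested here. The authors' deposited tables and the edgeR test gave the same call for all 34 tested members in both comparisons.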

How the data were processed

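Paired-end libraries were made from total RNA with the TruSeq Stranded mRNA kit, per the labels' protocols. The submitters' processing notes name bcl2fastq 2.20, STAR 2.7.3, DESeq2 1.24.0 and the hg19 build. The counter, annotation release and strand setting are not given in the sources used here.

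The authors deposited raw counts per gene. Their deposited tables also give a normalised mean signal, log2 fold changes with standard errors, a Wald statistic (score) and p-values, used to compare calls alone.

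Genes were filtered with filterByExpr and scaled with TMM factors in edgeR 4.0.16 (R 4.3.3). The 12 libraries were fitted together by robust quasi-likelihood (residual df 9), which was tested on simulated data, and calls were made at a Benjamini-Hochberg adjusted p under 0.05. Alternatives were other scalings and filters, DESeq2 1.42.0, 2 groups alone, a replicate block, either control pair and each library left out. Lengths came from GENCODE 29, matched by gene ID.

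Members and lists were chosen with earlier results of these data known. All 36 members are named, with CPM per library for those called in at least 2 of 3 comparisons (27). Related genes named have the 3 smallest p of their list.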

Additional observations from a re-analysis of the deposited data

Results flagged for a closer look

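Of 102 sets of 4 libraries checked, 34 tested members in 3 groups, 7 held a library far from the others by Dixon's criterion, where chance gives about 1 in 20. GALNT1 was at 367.9 CPM in siGOLM1-1 replicate 4, beside 435.2 to 442.1 CPM in the other libraries of that group. GALNT18 was at 30.1 CPM in siGOLM1-1 replicate 3, beside 32.0 to 32.2 CPM. ST3GAL1 was at 31.7 CPM in siGOLM1-1 replicate 1, beside 45.9 to 47.4 CPM, and at 37.5 CPM in siGOLM1-2 replicate 4, beside 25.0 to 25.8 CPM. GALNT5 was at 65.1 CPM in siGOLM1-2 replicate 4, beside 52.3 to 53.4 CPM, and GALNT12 at 13.7 CPM in the same library, beside 10.9 to 11.1 CPM. ST6GALNAC6 was at 25.3 CPM in control replicate 1, beside 27.4 to 27.7 CPM.

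4 members were called in opposite directions with the 2 siRNAs against the same control, beside 7.11% of all genes tested, and the siGOLM1-1 calls of GALNT6, C1GALT1 and GALNT5 were lost in 9, 8 and 2 of 17 alternatives. The difference of the siGOLM1-1 and siGOLM1-2 effects was -2.20 on the log2 scale for GALNT5, 1.78 for GALNT6, 1.06 for C1GALT1 and -1.18 for POGLUT1, each called by edgeR in the direct comparison.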

How the results depend on the processing

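Over all alternatives, the members' per-gene differences kept their call, or stayed uncalled, in 511 of 578 values for siGOLM1-1 against control, 551 of 578 for siGOLM1-2 against control and 487 of 510 for siGOLM1-1 against siGOLM1-2. Calls were lost in 60 values and gained in 5 for siGOLM1-1 against control, 16 and 11 for siGOLM1-2 against control, and 14 and 9 for the direct comparison. Among differences uncalled in both, the sign changed in 14, 28 and 5 values of these comparisons. With control replicates 1 and 2 alone, 2 uncalled differences of siGOLM1-1 turned round and passed the threshold, GALNT18 at 0.35 and B3GNT5 at 0.63, and the cause was not tested. Leaving out a library gave 11 to 18 members higher with siGOLM1-1, 11 being without siGOLM1-1 replicate 2, and a members' median of 0.16 to 0.24 with siGOLM1-2. That median was 0.27 with library totals alone and 0.24 with control replicates 1 and 2 alone, and the median of the direct comparison was -0.0025 with library totals alone. Library totals gave 14 higher and 9 lower with siGOLM1-1, 16 and 5 with siGOLM1-2 and 11 and 12 between the siRNAs.

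The replicate numbers showed no clear pairing of the libraries. Deviations of same-numbered libraries correlated at -0.20 to 0.35 over 12 pairs, and 4 of 12 libraries correlated best with their own number. The split of the control libraries enters these deviations, so a pairing is not excluded. With the replicate number as a block, the calls were 18 higher and 9 lower with siGOLM1-1, 15 and 5 with siGOLM1-2, and 13 and 11 between the siRNAs. The block gained 2 members' calls, B3GNT3 with siGOLM1-2 (0.58) and ST3GAL1 between the siRNAs (0.60), and lost none. Of the calls of the related genes named, 20 of 28 with siGOLM1-1, 14 of 23 with siGOLM1-2 and 22 of 23 between the siRNAs held in each alternative run.

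GALNT3 and ST6GALNAC5 had too few counts to be tested. GCNT4, ST6GALNAC1, ST6GALNAC2 and GALNT4, at a few CPM or less, had SEs of 0.25 to 0.38 against control. ST3GAL1 and B3GNT5 had SEs of 0.26 at higher levels, and GCNT1, also at a few CPM, had an SE of 0.15. The part of depth in these SEs was not tested.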
